A study of Caenorhabditis elegans with 6 samples.

Results

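The transfer RNA (tRNA) genes of Caenorhabditis elegans are described here as they appear among small RNAs bound to WAGO-4. The members are all 615 genes whose biotype in the deposited tables is tRNA, of 45510 genes in all. A gene's value is the sum over the rows of its gene identifier. The choice of members used no measured value.

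All 6 libraries came from young adults of the genotype 3xFLAG::GFP::WAGO-4 kept at 20 °C, and the tagged protein was precipitated with the anti-FLAG M2 antibody. A library from animals given lin-15b RNAi was set beside a first untreated library. A library from animals on HT115, the bacterium that feeds double-stranded RNA (dsRNA) to worms, was the baseline for the oma-1 libraries. These came from animals fed oma-1 dsRNA (P0) and from later generations, F1 and F3. Each group had 1 library, so differences were not checked by replicates and no test was run. No input or untagged control was analysed here, so levels describe the precipitate. The growth notes of the HT115 and P0 libraries also speak of embryos held at several temperatures. Those of F1 speak of larvae without food, and those of F3 of embryos after ultraviolet light. These notes do not match the labelled stage, and their part in the results was not tested.

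Gene-assigned reads numbered 8667735 to 11309227 per library. In the 5 libraries with separate strands, antisense reads made up 70.0% after lin-15b RNAi, 77.8% for HT115, 69.6% for P0, 55.6% for F1 and 72.5% for F3. The F1 library had the lowest antisense share. The first untreated library has a single count column, read here as both strands together. The dsRNA targets followed the labels. The oma-1 antisense level was 75.0 CPM (counts per 1000000 gene-assigned reads) for HT115, 1002 for P0, 176 for F1 and 143 for F3. The lin-15B antisense level was 1205 CPM after lin-15b RNAi and 58.8 to 81.5 CPM in the other 4 libraries with strands. The yolk genes vit-2, vit-5 and vit-6, which mark the adult intestine, were abundant on the sense strand in all 5 of these libraries. Antisense reads of the germline genes gld-1, oma-2, pgl-1 and mex-5 were found in all 5. The sperm genes msp-19, msp-142 and spe-9 together held 1.37 to 9.93 sense CPM.

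Transfer RNAs carry amino acids to the ribosome and are read from many near-identical gene copies by RNA polymerase III. They are trimmed, modified and charged by aminoacyl-tRNA synthetases, and cells also cut them into fragments of the size of small RNAs. WAGO-4 is a germline Argonaute whose usual partners are small RNAs that RNA-dependent RNA polymerases make antisense to messenger RNAs. A read on the tRNA strand can be a piece of tRNA or of its precursor, or it can be antisense to another gene annotated opposite. The origin of the reads was not tested. Inserts of 17 to 30 nt were kept, so whole tRNAs could not be read.

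All 615 genes were found by identifier in the Ensembl release 115 annotation of WBcel235. It calls 612 of them tRNA and the other 3 (F09E10.13, F09E10.15 and Y40A1A.5) ncRNA. The X chromosome held 279 of them, and chromosomes I, II, III, IV and V held 66, 57, 64, 71 and 78. Genes were 64 to 122 bp long, with 285 of 72 bp and 156 of 73 bp. Only 2 genes had no read in any library. A read on the tRNA strand was found for 552 genes on HT115, 535 in P0, 547 in F1, 546 in F3 and 434 after lin-15b RNAi. In the first untreated library 481 genes had a read on either strand. The median gene had 2 to 5 reads per library, so most single genes were too shallow to compare. The amino acid and anticodon of each gene were not analysed here, and no sequence is shown.

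Per gene-assigned read, the total tRNA level was highest in F1, while per sense read it was highest in F3 and, of HT115 and the oma-1 libraries, lowest in F1. Sense reads of tRNA genes numbered 6708 for HT115, 7979 for P0, 12377 for F1 and 9848 for F3. These were 706 CPM for HT115 (95% Poisson interval 689 to 723), 921 for P0 (900 to 941), 1264 for F1 (1242 to 1286) and 977 for F3 (958 to 997). None of the 4 intervals overlapped. Intervals here and below cover counting error only. The fold over HT115 was 1.30 in P0 (95% interval 1.26 to 1.35), 1.79 in F1 (1.74 to 1.84) and 1.38 in F3 (1.34 to 1.43). These 3 comparisons share the HT115 library. In whole animals, fewer cells of a type and less RNA per cell cannot be told apart.

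The choice between gene-assigned and sense reads as the total decided the direction in P0 and F1. Per 1000000 sense reads, tRNA genes held 3182 for HT115, 3026 for P0, 2849 for F1 and 3560 for F3. On this scale the fold over HT115 was 0.951 in P0 (0.921 to 0.983), 0.895 in F1 (0.869 to 0.923) and 1.12 in F3 (1.08 to 1.15). Several other sense classes were also high in the F1 library, but not all. Per 1000000 gene-assigned reads, the F1 fold over HT115 was 1.90 for ribosomal RNA, 2.09 for small nucleolar RNA and 1.73 for small nuclear RNA, against 0.974 for microRNA and 0.413 for piRNA. The summed sense level of the 3 yolk genes was 16832 CPM in F1 against 8687 CPM on HT115. Whether the low antisense share of F1 sets its tRNA level was not tested.

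**Figure D1:**
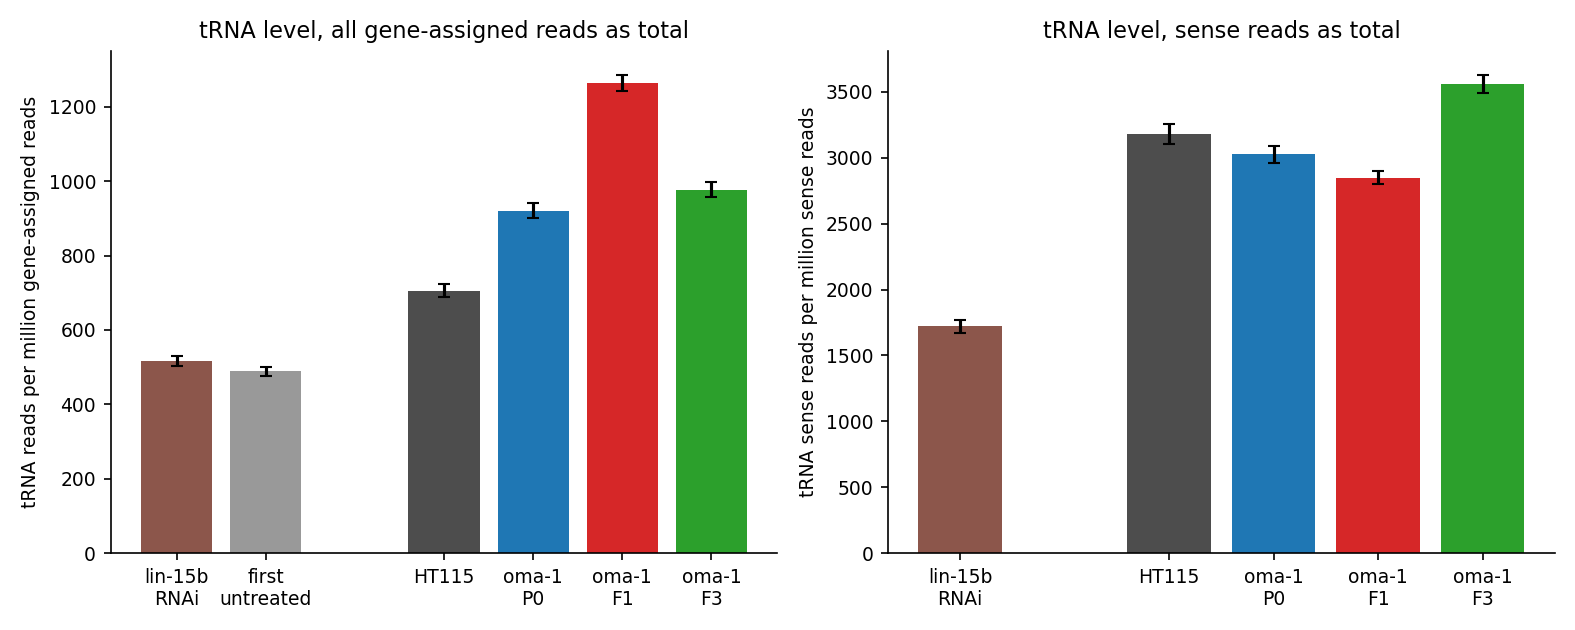
Level of tRNA genes by library, as reads per 1000000 gene-assigned reads (left) and as sense reads per 1000000 sense reads (right); bars are single libraries, of sense reads except for both strands in the first untreated library, and error bars are 95% Poisson intervals. The F1 library is the highest on the left at 1264 and the lowest of the 4 HT115 and oma-1 libraries on the right at 2849.

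The lin-15b RNAi library and the first untreated library differed little in their total. Both strands of tRNA genes together gave 549 CPM after lin-15b RNAi, against 488 CPM in the first untreated library, a fold of 1.12 (1.08 to 1.17). Per gene-assigned read, the 2 libraries without RNAi differed more. HT115 had 766 CPM on both strands, against 488 CPM in the first untreated library, a fold of 1.57 (1.51 to 1.62). On this scale the fold between 2 libraries without RNAi lay within the range of the oma-1 folds over HT115, 1.30 to 1.79. Per microRNA reads the folds over the first untreated library were 0.706 for lin-15b RNAi and 0.841 for HT115, so both the directions and their order depend on the total.

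Copies of near-identical sequence can share reads, so the genes were next described in groups. Single genes of the same annotated length often had nearly the same count in every library. Among the 104 genes with at least 100 reads over the 6 libraries, 92 fell into 8 such sets of 4 to 26 genes. The sets were made from these counts after the values had been seen and are a description with no test. They are named by their gene with the highest mean level. Their reads and shares below are of sense reads, except for both strands in the first untreated library, and folds over that library use both strands on each side. Within a set, the variance of the counts over their mean was 0.0717 to 3.16 across sets and libraries, where counting error alone gives 1. Since near-equal counts made the sets, low values follow from the rule and are not a result.

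The largest set by reads held 22 genes of 72 bp led by Y22D7AL.t4. It includes all 5 genes that carry an rte locus name, rte-1 to rte-5. Of its genes 13 lie on X, 4 on I, 4 on III and 1 on II. The set had 1776 reads for HT115, 3020 for P0, 5761 for F1 and 3266 for F3. It had 678 after lin-15b RNAi, against 212 in the first untreated library. Its share of all tRNA reads was 26.5% for HT115, 37.8% for P0, 46.5% for F1 and 33.2% for F3, so it was the largest set in these 4 libraries. It was 13.9% after lin-15b RNAi, against 3.84% in the first untreated library.

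The fold of the rte set over HT115 was 1.86 in P0 (1.76 to 1.98), 3.15 in F1 (2.98 to 3.32) and 1.73 in F3 (1.64 to 1.84). It was above 1 on the sense scale (per 1000000 sense reads) too, where the total was above 1 in F3 alone, at 1.36 in P0, 1.57 in F1 and 1.40 in F3. The fold was 3.83 after lin-15b RNAi over the first untreated library (3.28 to 4.49). On HT115 over the first untreated library it was 9.99 (8.66 to 11.6). Without these 22 genes, the other 593 gave folds over HT115 of 1.10 in P0 (1.06 to 1.15), 1.30 in F1 (1.25 to 1.35) and 1.26 in F3 (1.21 to 1.31). On the sense scale they gave 0.804 for P0, 0.651 for F1 and 1.02 for F3, so the direction for the other genes in P0 and F1 depends on the total.

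Counts of single genes were even within this set, as the rule that made it requires. On HT115 its genes had 62 to 99 reads with a median of 82.5, in P0 115 to 162 with a median of 138.5, in F1 234 to 294 with a median of 261.5, and in F3 122 to 171 with a median of 148. In reads not scaled to depth, the range on HT115 lay below those in P0, F1 and F3. How often such ranges part for other genes was not measured, so this is not a result. The set was made from these counts and its genes may share reads, so they cannot be taken as 22 independent genes. In F1, 72.6% of all genes measured at 25 CPM were at least 2-fold higher than on HT115. The 10 tRNA genes with the highest mean level were all in this set. They are Y22D7AL.t4, F52E10.t3, F52E10.t5, F52E10.t4, F15A8.t1, M01E10.t1, ZK622.t2 (rte-4), Y53C10A.t1, C39D10.t2 and Y53C10A.t2 (rte-2). Y22D7AL.t4, on chromosome III from 1604702 to 1604773 of WBcel235, had 98 reads for HT115, 150 for P0, 263 for F1 and 166 for F3. F52E10.t3, on X from 16285295 to 16285366, had 84 for HT115, 157 for P0, 264 for F1 and 171 for F3. F01G12.t1 gave the highest F1 fold of single genes at the 25 CPM minimum, 4.32 (3.30 to 5.73), with 294 reads in F1 against 66 on HT115. F15A8.t2 and F15A8.t1 followed at 4.07 and 3.70. K08B5.t2 gave the lowest, 2.49 (1.97 to 3.17), with 254 reads in F1 against 99 on HT115. Y22D7AL.t4 and C39D10.t1 came next at 2.60 and 2.80. Whether these genes are near-identical copies was not analysed here. Such copies can share reads, so no difference among these counts can be read as a difference between genes.

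The second set held 26 genes of 72 bp led by R03E1.t2, with 12 on X, 9 on IV, 4 on V and 1 on I. It had 1061 reads for HT115, 1490 for P0, 1872 for F1 and 1699 for F3. Its fold over HT115 was 1.54 in P0 (1.42 to 1.67), 1.71 in F1 (1.59 to 1.85) and 1.51 in F3 (1.40 to 1.63). Per 1000000 sense reads these were 1.12, 0.856 and 1.22, so the direction in F1 depends on the total. On both strands it had 242 reads after lin-15b RNAi, against 175 in the first untreated library. HT115 exceeded the first untreated library by 7.43-fold (6.33 to 8.76).

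Some sets were instead most abundant in the first untreated and lin-15b RNAi libraries. The 6-gene set of 72 bp led by H35N09.t2 had 818 reads after lin-15b RNAi, against 1675 in the first untreated library. It had 192 for HT115, 159 for P0, 158 for F1 and 196 for F3. It made up 30.3% of the tRNA reads of the first untreated library and 1.28% to 2.86% of those of HT115 and the oma-1 libraries. The fold was 0.590 after lin-15b RNAi over the first untreated library (0.542 to 0.642) and 0.141 on HT115 over the first untreated library (0.121 to 0.163).

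The 12-gene set of 73 bp led by F42G10.t1 lies wholly on X. It had 1035 reads after lin-15b RNAi, against 326 in the first untreated library, and 30 to 38 in each of the other 4. Its fold was 3.83 after lin-15b RNAi over the first untreated library (3.38 to 4.35). It thus made up 21.2% of the tRNA reads after lin-15b RNAi, the largest set there, against 5.90% in the first untreated library. The nearly equal totals of these 2 libraries therefore hide differences in both directions. The 12-gene set of 71 bp led by Y37B11A.t2 had 106 reads after lin-15b RNAi, against 305 in the first untreated library, a fold of 0.436 on both strands (0.348 to 0.544). It had 350 for HT115, 446 for P0, 448 for F1 and 591 for F3.

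The 4-gene set of 85 bp led by C36F7.t2 was high in P0 and F1. Its genes are C36F7.t2, C36F7.t3, F47A4.t1 and T22C1.t1, of which 3 lie on chromosome I and 1 on X. It had 36 reads for HT115, 153 for P0, 238 for F1 and 44 for F3. It had 3 after lin-15b RNAi and 0 in the first untreated library, where 3 reads, the limit used here for a count of 0, equal 0.265 CPM. The fold over HT115 was 4.66 in P0 (3.22 to 6.90), 6.41 in F1 (4.50 to 9.38) and 1.15 in F3 (0.725 to 1.84). On the sense scale it was 3.40 in P0, 3.21 in F1 and 0.931 in F3. The HT115 and F3 libraries cannot be told apart at this depth. C36F7.t2 itself had 6 reads on HT115, 46 in P0 and 65 in F1. Its neighbour C36F7.t1, which is in no set, had 51 reads in F1 against 8 on HT115, a fold of 6.18 (2.91 to 15.1).

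Both remaining sets were small. The 6 genes of 72 bp led by C05E7.t2, with 5 on X, had 134 reads for HT115, 67 for P0, 86 for F1 and 162 for F3. Their fold over HT115 was 0.548 in P0 (0.402 to 0.740), 0.623 in F1 (0.469 to 0.822) and 1.14 in F3 (0.901 to 1.44), and on the sense scale 0.400 in P0, 0.311 in F1 and 0.921 in F3. The 4 genes of 72 bp led by Y97E10C.t1 had 68 reads for HT115, 53 for P0, 87 for F1 and 72 for F3. The interval of each of their 3 folds held 1, while on the sense scale they were 0.623 for P0, 0.621 for F1 and 0.807 for F3. The 523 genes in no set together gave 0.919 in P0 (0.872 to 0.969), 1.17 in F1 (1.12 to 1.23) and 1.17 in F3 (1.11 to 1.23). On the sense scale they gave 0.671 in P0, 0.587 in F1 and 0.945 in F3, so their direction in F1 and F3 depends on the total.

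**Figure D2:**
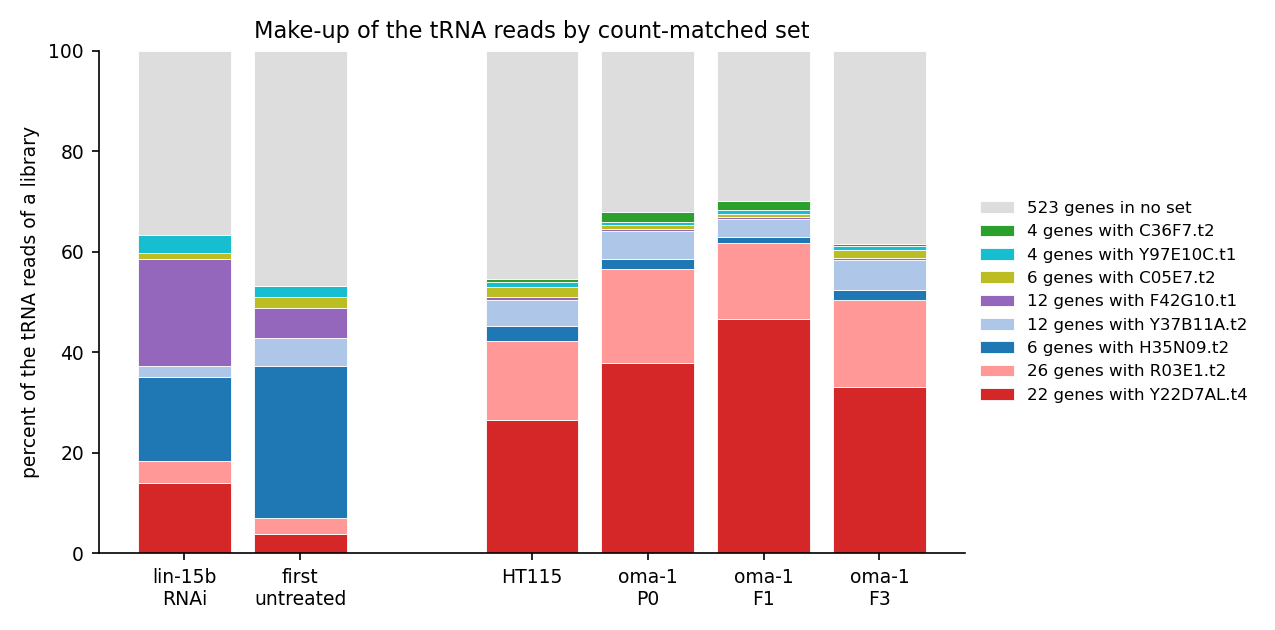
Share of each count-matched set in the tRNA reads of a library, in percent; each column is 1 library and the grey part is the 523 genes in no set. Reads are sense, except for both strands in the first untreated library. The 22 genes with Y22D7AL.t4 hold 26.5% to 46.5% in the HT115 and oma-1 libraries, 13.9% after lin-15b RNAi and 3.84% in the first untreated library, while the 6 genes with H35N09.t2 hold 30.3% of that library.

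**Figure D3:**
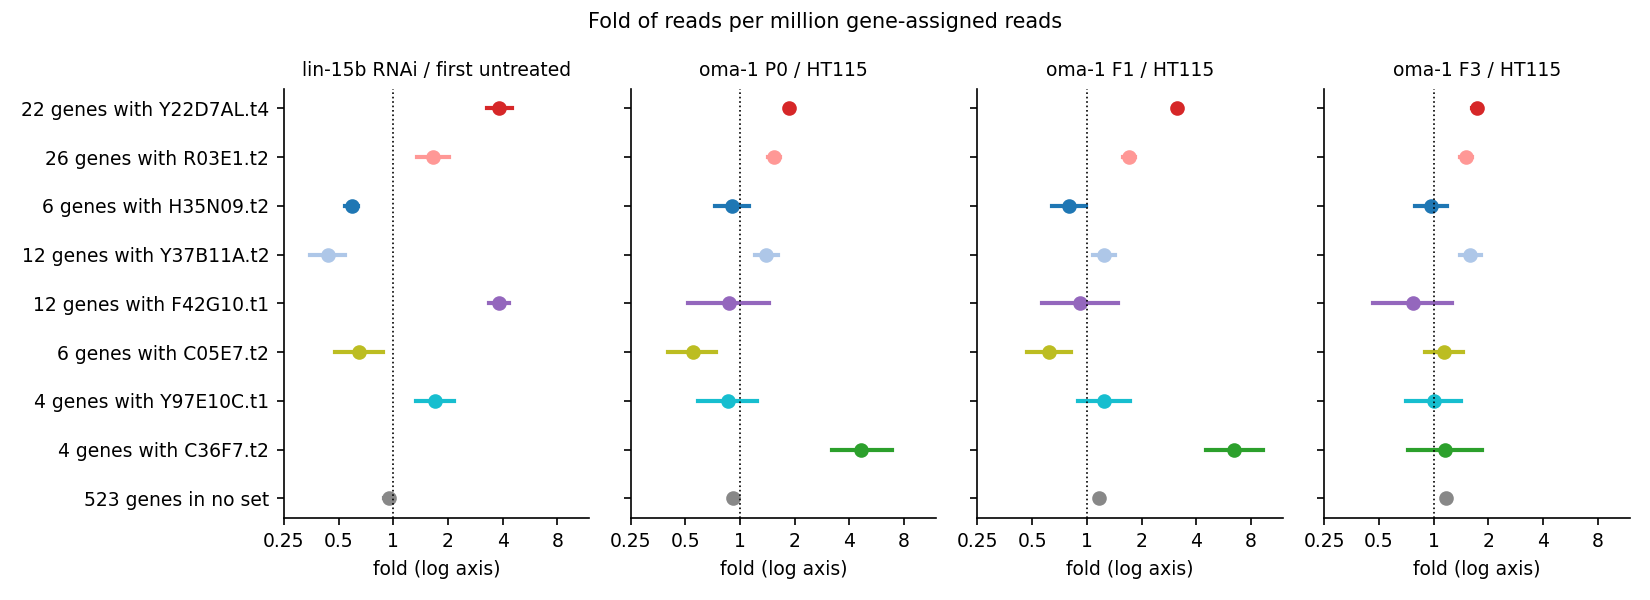
Fold in reads per 1000000 gene-assigned reads for each set, on a log axis; points are folds between single libraries and lines are 95% counting intervals. In F1 the 22 genes with Y22D7AL.t4 stand at 3.15 and the 4 genes with C36F7.t2 at 6.41, while the 523 genes in no set stand at 1.17; no point is drawn for C36F7.t2 in the left panel because the first untreated library had 0 reads.

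Among single genes outside the sets, some were abundant in 1 or 2 libraries only. They were partly chosen after their values had been seen. F54F7.t1, on X from 11872506 to 11872577, had 117 reads on both strands after lin-15b RNAi, against 379 in the first untreated library, the highest count of any tRNA gene there. It had 15 to 29 sense reads in the other 4 libraries. D1009.t1, also on X, had 28 reads after lin-15b RNAi, against 249 in the first untreated library, a fold of 0.135 (0.0877 to 0.200), and 15 to 24 elsewhere. F12D9.t5 had 77 reads after lin-15b RNAi, against 46 in the first untreated library, and 0 to 7 elsewhere. K11E4.t2 had 28 reads for HT115, 47 for P0, 134 for F1 and 23 for F3. C40H5.t1 had 41 reads after lin-15b RNAi, against 2 in the first untreated library, a fold of 24.6 whose interval runs from 6.38 to 209.6.

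The named suppressor and rtw loci were rare. The 7 sup genes (sup-5, sup-7, sup-21, sup-24, sup-28, sup-29 and sup-33) are known from mutant alleles that let a tRNA read a stop codon. Together they had 63 sense reads after lin-15b RNAi, against 22 in the first untreated library, and 24 to 51 in the other 4. The 2 rtw genes, rtw-5 and rtw-6, had 0 to 13 reads per library. The 5 rte genes alone had 416 reads for HT115, 679 for P0, 1286 for F1 and 709 for F3.

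At the minimum of 25 CPM in the higher library, few tRNA genes could be counted one by one. No tRNA gene exceeded 10.4 sense CPM on HT115 or 17.1 sense CPM after lin-15b RNAi, so a gene could pass the minimum only through F1 or through the first untreated library. The directions in F1 and on HT115 were therefore fixed by the minimum and are not a result about tRNA genes. After lin-15b RNAi a measured gene could not be higher for the same reason, so a count of 0 higher is not a result either. In F1 over HT115, all 20 measured tRNA genes were at least 2-fold higher and 0 were lower, beside 72.6% of all measured genes higher and 0.195% lower. All 20 belong to the rte set, and their median log2 ratio was 1.63 beside 1.15 over all measured genes. In P0 and F3 no tRNA gene reached the minimum, beside 3.77% of all measured genes higher and 0.18% lower in P0, and 6.19% higher and 0.524% lower in F3. After lin-15b RNAi 3 were measured, of which 0 were higher and 1 (F54F7.t1) was lower, beside 6.31% and 1.8% of all genes. On HT115 over the first untreated library all 3 measured genes (F54F7.t1, K02E11.t1 and T03E6.t1) were lower, beside 10% of all genes.

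A minimum of 2.5 CPM, added after the values had been seen, measured more genes. In P0 11 of 88 were higher and 6 lower, beside 7.8% and 1.15% of all genes. In F1 35 of 97 were higher and 4 lower, beside 54.5% and 1.34%. In F3 10 of 108 were higher and 1 lower, beside 8.64% and 2.43%. The highest P0 folds were those of C36F7.t2, T22C1.t1 and C36F7.t3 (8.40, 6.42 and 4.87). The lowest were those of H08J11.t5, F54F7.t2 and F08G5.t2 (0.235, 0.307 and 0.337), each from 6 to 8 reads in P0. In F3 the highest were F15B9.t1, T26C11.t1 and C06B8.t3 (3.50, 2.67 and 2.48), and C10G8.t1 was lowest at 0.423.

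The median log2 ratio of the measured tRNA genes was 0.64 in P0, 0.73 in F1 and 0.60 in F3. The median over all measured genes was 0.55 in P0, 1.04 in F1 and 0.34 in F3. The tRNA median was thus below that of all genes in F1, the reverse of the order at 25 CPM (1.63 beside 1.15). In P0 and F3 it was above that of all genes at 2.5 CPM. After lin-15b RNAi 35 of 56 were higher and 7 lower, beside 11.3% and 4.11% of all genes. On HT115 over the first untreated library 62 of 97 were higher and 16 lower, beside 27.3% and 9%. Only 26 tRNA genes reached 2.5 CPM in the first untreated library. In both comparisons most measured genes thus passed the minimum only through the other library. Their directions are therefore partly set by the minimum and are not a result about tRNA genes. Of the 35 higher after lin-15b RNAi, 19 belong to the rte set and 12 to the F42G10.t1 set. Of the 62 higher on HT115, 22 belong to the rte set and 26 to the R03E1.t2 set. Of the 35 higher in F1, 22 belong to the rte set, 5 to the R03E1.t2 set and 4 to the C36F7.t2 set. These counts and medians therefore do not stand for independent genes.

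Genes were also grouped by chromosome and length. The X chromosome, with 45.4% of tRNA genes, held 49.8% of tRNA reads for HT115, 50.4% for P0, 52.3% for F1 and 49.9% for F3. It held 60.6% after lin-15b RNAi, against 53.1% in the first untreated library. Genes of 72 bp, 46.3% of all, held 72.9% of tRNA reads for HT115, 75.4% for P0, 78.5% for F1 and 75.4% for F3. Genes of 73 bp held 29.1% after lin-15b RNAi, against 15.6% in the first untreated library. In both cases the sets described above carry much of the difference.

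Reads antisense to tRNA genes were few. The antisense share of tRNA reads was 7.78% for HT115 (Wilson interval 7.19 to 8.42), 3.90% for P0 (3.51 to 4.34), 2.22% for F1 (1.98 to 2.49) and 4.05% for F3 (3.69 to 4.45). It was 5.98% after lin-15b RNAi (5.36 to 6.66). In protein-coding genes the antisense share was 62.6% to 83.3%, in ribosomal RNA 10.4% to 19.3%, and in microRNA 0.202% to 0.417%. Antisense reads of tRNA genes numbered 566 for HT115, 324 for P0, 281 for F1 and 416 for F3. As CPM their fold over HT115 was 0.627 in P0 (0.546 to 0.720), 0.482 in F1 (0.416 to 0.557) and 0.693 in F3 (0.609 to 0.788). Per 1000000 antisense reads it was 0.702, 0.673 and 0.743, so antisense tRNA reads were lower than on HT115 with either total. Low folds on this scale were not limited to tRNA genes. In the same order, piRNA gave 0.352, 0.609 and 0.678, microRNA 0.924, 0.675 and 0.694, and small nuclear RNA 1.00, 0.707 and 0.863. The P0 intervals of microRNA and small nuclear RNA held 1. Ribosomal RNA gave 1.17, 2.15 and 1.04, and small nucleolar RNA 1.26, 1.32 and 1.21.

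**Figure D4:**
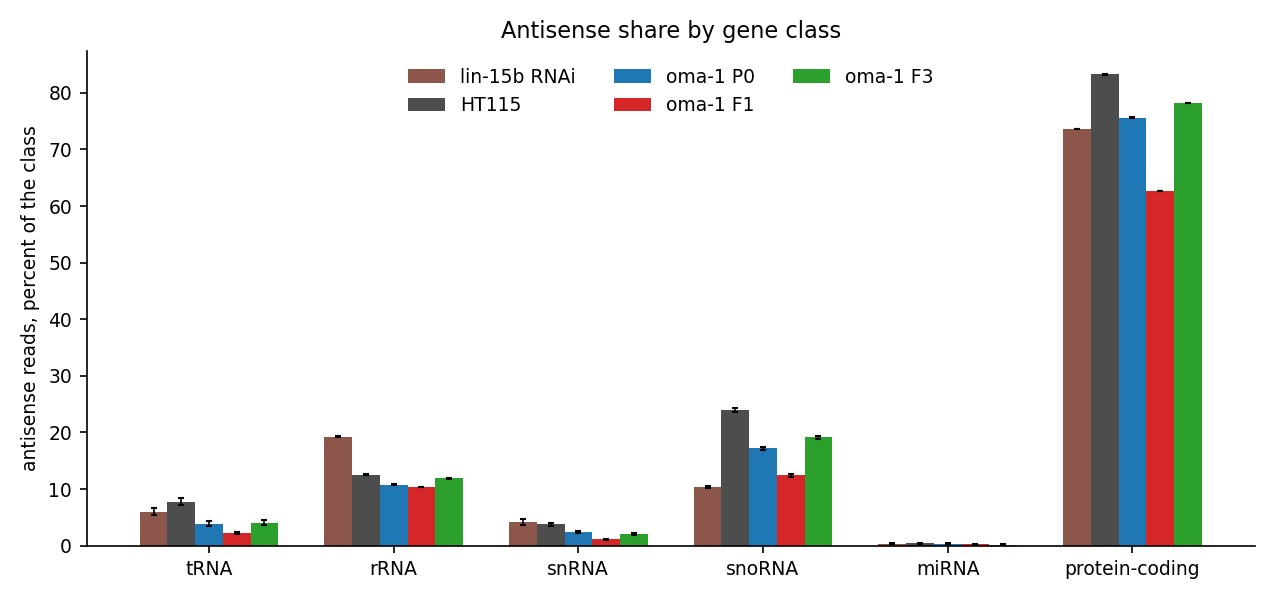
Antisense reads in percent of all reads of a gene class, for the 5 libraries with separate strands; bars are single libraries and error bars are 95% Wilson intervals. The tRNA share lies between 2.22% in F1 and 7.78% on HT115, far under the 62.6% to 83.3% of protein-coding genes.

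Most antisense reads came from genes in no set, which held 498 of 566 for HT115, 267 of 324 for P0, 233 of 281 for F1 and 359 of 416 for F3. The rte set had 0 to 4 antisense reads per library, at most 0.225% of its reads. The 523 genes in no set had an antisense share of 14.0% for HT115, 9.44% for P0, 5.94% for F1 and 8.66% for F3. Of all tRNA genes, 153 had no antisense read in these 5 libraries. The 5 genes with the most antisense reads were Y40A1A.5, F09E10.15, F10C1.t1, Y69A2AR.t2 and C06G1.t4.

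Y40A1A.5 and F09E10.15, both on X, are among the 3 genes that Ensembl calls ncRNA. Y40A1A.5, from 1993449 to 1993562, had 23 antisense and 83 sense reads on HT115, 39 and 74 in P0, 25 and 92 in F1, and 32 and 88 in F3. After lin-15b RNAi it had 16 antisense and 14 sense reads, so antisense reads were the more numerous there. F09E10.15, from 1506302 to 1506390, had 18, 15, 12 and 17 antisense reads in these 4 libraries and 0 to 2 sense reads. After lin-15b RNAi it had 37 antisense and 0 sense reads. F10C1.t1, on chromosome II from 5782212 to 5782282, had 21 antisense and 11 sense reads on HT115, 11 and 2 in P0, 11 and 9 in F1, and 18 and 10 in F3.

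Antisense reads outnumbered sense reads in 1 of 110 tRNA genes with at least 20 reads on HT115, beside 72.5% of all such genes. The counts were 0 of 86 in P0, 1 of 118 in F1 and 1 of 144 in F3, beside 69.3%, 59.1% and 66.5%. After lin-15b RNAi they were 2 of 55, beside 65.6%. The 24 genes of 74 bp stood apart on HT115, a length group singled out after its values were seen. They had 38 antisense and 11 sense reads on HT115, 1 and 4 in P0, 2 and 4 in F1, and 7 and 7 in F3. The 38 reads were spread over these genes, with at most 4 in any 1 of them.

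Many tRNA genes have a second annotated gene on the opposite strand, and this bears on how antisense reads of other genes are read. A noncoding gene lies opposite 352 of the 615, and an exon of a protein-coding gene opposite 1. Another 68 lie opposite an intron of a protein-coding gene, and 46 lie within a protein-coding gene on its own strand. The 351 noncoding genes opposite had 7397 antisense reads for HT115, 9287 for P0, 13977 for F1 and 11142 for F3, and 4010 after lin-15b RNAi. Antisense reads made up 93.0% to 98.0% of their reads. They were 9.31% to 22.2% of all antisense reads of genes with the biotype ncRNA.

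These antisense levels lay close to those of the tRNA strand. The genes were picked by their overlap with tRNA genes, and a read in the overlap can be counted for both. The closeness is therefore largely set by the choice of genes and is not a separate result. The fold over HT115 was 1.38 in P0 (1.33 to 1.42), 1.83 in F1 (1.78 to 1.89) and 1.42 in F3 (1.38 to 1.46), close to the tRNA folds of 1.30, 1.79 and 1.38. For the 20 noncoding genes opposite the rte set, it was 1.88 in P0, 3.17 in F1 and 1.71 in F3. Those 20 genes had a median of 89.5 antisense reads for HT115, 157 for P0, 300.5 for F1 and 169.5 for F3, a little above the medians of the tRNA genes themselves. They had at most 6 sense reads in any library. The 5 noncoding genes with the most antisense reads were F56F4.11, C39D10.17, M02F4.12, F52E10.10 and F27D9.9, of which the last 4 lie opposite genes of the rte set. C39D10.17 had 333 antisense reads in F1, against 113 on HT115. C39D10.t2 opposite had 264 sense reads in F1, against 88 on HT115. By strand, these are the same direction of reading as tRNA fragments.

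F56F4.11 differed from the other 4. It had 138 antisense reads for HT115, 237 for P0, 229 for F1 and 220 for F3, while F56F4.t2 opposite had 10, 11, 25 and 18 sense reads. It extends past the tRNA gene at both ends, from 6136592 to 6136686 on chromosome I. Where along it the reads lie was not analysed here.

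**Figure D5:**
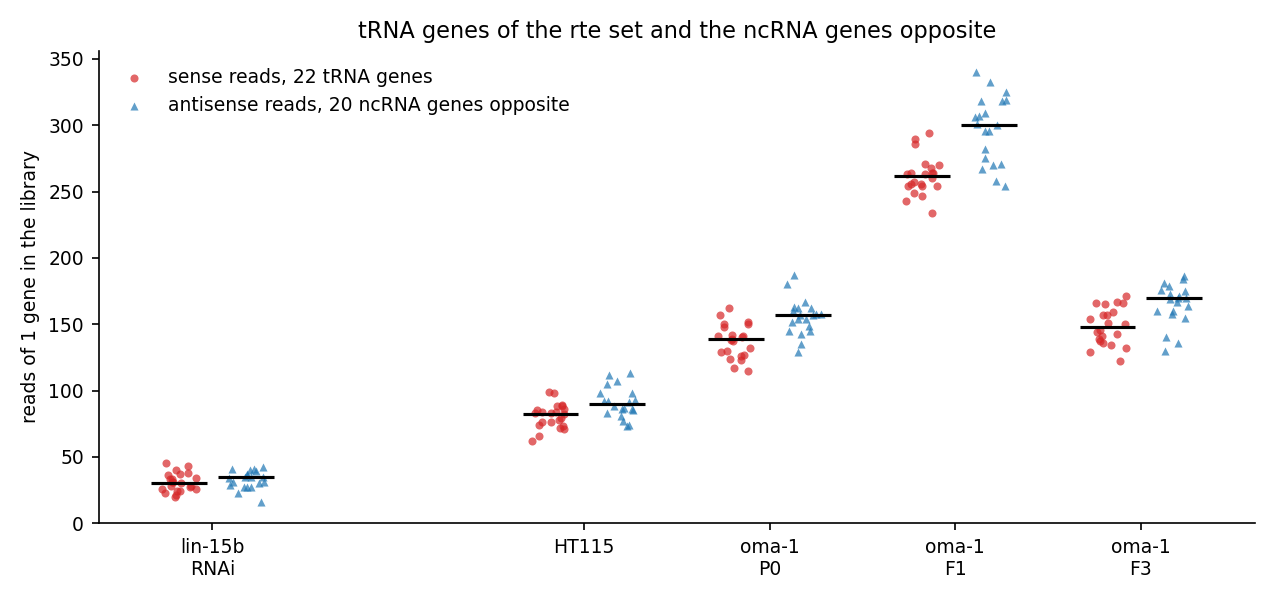
Reads per gene in each library for the 22 tRNA genes of the rte set (circles, sense) and the 20 ncRNA genes annotated opposite them (triangles, antisense); black lines are medians over genes. Both kinds sit together in every library, with medians of 261.5 and 300.5 in F1, against 82.5 and 89.5 on HT115. A read in the overlap can be counted for both kinds.

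Genes that make and use tRNA were measured by their antisense small RNAs, the usual WAGO-4 class, per 1000000 antisense reads. All 32 aminoacyl-tRNA synthetase genes, which charge tRNA with amino acids, reached 25 CPM. None was 2-fold higher or lower than HT115 in P0, F1 or F3, beside 0.528% and 0.0341% of all genes in P0, 1.5% and 0.43% in F1, and 0.328% and 0.587% in F3. Their median log2 ratio was -0.02 in P0, -0.03 in F1 and 0.03 in F3. By the mean of the 5 libraries with strands, the most abundant were aars-2 (alanine), tars-1 (threonine), iars-1 (isoleucine) and fars-2 (phenylalanine). The rank of fars-2 rests on the lin-15b RNAi library, with a level of 1002, against 199 to 237 in the other 4, where aars-1 was higher at 297 to 348. The aars-2 level was 956 for HT115, 912 for P0, 930 for F1 and 912 for F3. The tars-1 level was 622 for HT115, 610 for P0, 647 for F1 and 707 for F3.

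Of 21 listed genes for tRNA modification, processing and export, 18 were found and measured, and 0 passed 2-fold in either direction in P0, F1 or F3. They include xpo-3, the tRNA exportin, at 384 for HT115, 428 for P0, 377 for F1 and 450 for F3. Next were pus-1, a pseudouridine synthase, alkb-8, a methyltransferase of the wobble base, and popl-1, a subunit of RNase P. The pus-1 level was 454 after lin-15b RNAi and 173 to 182 in the other 4 libraries, where it was below the 206 to 228 of alkb-8. Of 11 genes for RNA polymerase III and its factors, 10 were measured and 0 passed 2-fold. The most abundant were rpc-2 and rpc-1, its large subunits, mafr-1, its repressor, and tftc-1, a subunit of the factor that recruits it. Their median log2 ratios lay between -0.07 and 0.00. Beside the small shares of all genes given above, counts of 0 are not a result about any of the 3 lists.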

How the data were processed

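Small RNAs of WAGO-4 precipitates from 6 libraries were analysed, from the authors' deposited counts of reads on each annotated transcript. The submitters' processing notes name Bowtie2. Its version, the counting tool, the annotation and the genome build were not given in the sources used here. Counts were summed per gene. The lines without a gene held at most 0.000296% of reads and were left out. Levels are per 1000000 gene-assigned reads of both strands. Intervals at 95% are exact Poisson (levels), exact conditional binomial (folds) and Wilson (shares). A gene was called at 2-fold with a pseudocount of 0.5 and at least 25 CPM in the higher library. A fold against 0 reads was not given. Depth was 8667735 to 11309227 reads, where 3 reads equal 0.265 to 0.346 CPM.

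Sets joined genes of equal length and at least 100 reads by average linkage of square-root counts, at a distance of 4. Named genes were the 10 highest, the 3 highest and lowest folds per comparison and the 5 with most antisense reads. The members, lists and sets were chosen with earlier results of these data known. Code was tested on simulated data. Python 3.11.15, numpy 2.4.6, pandas 2.3.3, scipy 1.17.1, matplotlib 3.10.9 and, for TMM sizes, edgeR 4.0.16 were used.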

Additional observations from a re-analysis of the deposited data

How the results depend on the processing

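With 1 library per group, no alternative has a replicate check. No paired analysis was possible because the labels give no replicate numbers within groups of 1 library. The variant without mitochondrial tRNA genes was not run, since those genes carry another biotype. The variant by amino acid was replaced by the count-matched sets. An alternative is said to move a fold when it leaves the fold's counting interval. The cause of the changes below was not tested, except where fewer genes were counted.

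The direction of the total tRNA fold turned with the denominator. Per microRNA reads it was 0.706 for lin-15b RNAi and 0.841 for HT115, each over the first untreated library. With the same total, the fold over HT115 was 1.34 in P0, 1.84 in F1 and 1.03 in F3. Per sense reads it was 0.951 in P0, 0.895 in F1 and 1.12 in F3. TMM sizes gave folds of 1.03 for lin-15b RNAi, 1.09 for HT115 over the first untreated library, 1.35 in P0, 2.04 in F1 and 1.44 in F3. Median-of-ratios sizes gave 1.02 for lin-15b RNAi, 1.10 for HT115 and 1.86 in F1. Without ribosomal RNA in the total F1 gave 1.89, and without the 20 most abundant genes 1.91. Without tRNA genes that have a gene opposite the fold was 1.98 for HT115 over the first untreated library, 1.20 in P0, 1.52 in F1 and 1.27 in F3. Without the 22-gene rte set it was 1.02 for lin-15b RNAi, 1.23 for HT115 over the first untreated library, 1.10 in P0, 1.30 in F1 and 1.26 in F3. On both strands it was 1.25 in P0, 1.69 in F1 and 1.33 in F3. Over the first untreated library it was 1.96 in P0, 2.65 in F1 and 2.09 in F3. Using only genes of all 6 tables left all 5 folds within their intervals. Adding the antisense reads of genes opposite, run for the 3 oma-1 folds, also left each within its interval. That variant can count the same reads again, so it is no independent check.

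Divided by total tRNA reads, some folds left their interval and turned. They were 0.956 in F1 for the R03E1.t2 set and 0.693 in F1 for the Y97E10C.t1 set. For the Y37B11A.t2 set they were 0.909 for HT115 over the first untreated library and 0.694 in F1. For the C05E7.t2 set they were 0.844 for HT115 over the first untreated library and 0.823 in F3. The F3 fold of the C36F7.t2 set turned to 0.833 within its interval. The other 19 that moved kept their direction. Leaving out the most abundant gene of a set moved none of 38 folds.

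Without tRNA genes that have a gene opposite, the antisense share was 12.6% after lin-15b RNAi, 8.84% for HT115, 6.12% for P0, 3.23% for F1 and 5.44% for F3. Without the 3 genes annotated as ncRNA it was 4.96% after lin-15b RNAi, 3.30% in P0, 1.94% in F1 and 3.63% in F3. Per antisense total, the genes opposite gave 1.54 in P0, 2.56 in F1 and 1.52 in F3.

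Counts of genes past 2-fold depended most on the minimum. At 2.5 CPM, higher and lower counts were 35 and 7 after lin-15b RNAi, 62 and 16 on HT115 over the first untreated library, 11 and 6 in P0, 35 and 4 in F1, and 10 and 1 in F3. At 10 CPM they were 1 and 2 after lin-15b RNAi and 3 and 8 on HT115, with 5 higher in P0 and 4 higher in F3. At 100 CPM all of these counts were 0, since no tRNA gene reached it. At 4-fold 2 were higher in F1 and 0 lower after lin-15b RNAi. Median-of-ratios sizes gave 6 higher in F1, 3 lower after lin-15b RNAi and 8 lower on HT115, and the sense total gave 3 higher in F1. With each set counted as 1 gene, 2 were higher and 2 lower after lin-15b RNAi, 2 were higher on HT115 over the first untreated library, and 1 was higher in F1. A pseudocount of 5 moved none of the counts.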

Other observations

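The antisense share was also grouped by the surroundings of a tRNA gene, and these values belong to none of the comparisons above. The order of the groups differed between libraries, and some of their intervals overlapped. Of the 22 genes of the rte set, with 0 to 4 antisense reads per library, 20 have an annotated gene opposite. Whether the sets account for the shares was not tested. The 352 genes with a noncoding gene opposite had an antisense share of 7.20% for HT115, 2.78% for P0, 1.80% for F1 and 3.38% for F3. The 68 genes opposite an intron of a protein-coding gene had 8.81% for HT115, 5.28% for P0, 2.17% for F1 and 5.25% for F3. The 46 genes within a protein-coding gene on its own strand had 5.35% for HT115, 3.81% for P0, 2.78% for F1 and 3.23% for F3. The 148 genes with none of these had 9.83% for HT115, 6.95% for P0, 3.67% for F1 and 6.11% for F3. After lin-15b RNAi these 4 shares were 3.39%, 7.79%, 13.2% and 14.6%. Y69A2AR.t2, on chromosome IV, had 11 antisense and 12 sense reads on HT115 and 10 and 13 in F3. C06G1.t4 of the R03E1.t2 set had 7 antisense and 31 sense reads on HT115, while that whole set had 31 antisense reads.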
